A study of Mus musculus with 18 samples.

Results

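Calretinin and the genes of inhibitory and other amacrine transmitters were followed across the 18 libraries of the series. The 8 genes were taken by symbol from both deposited tables: Calb2 and Calb1, which encode the calcium-binding proteins calretinin and calbindin, Gad1 and Gad2, which encode the enzymes that make GABA, Slc32a1, the vesicular transporter of GABA and glycine, Slc6a9, the glycine transporter GlyT1, Chat, which encodes the enzyme that makes acetylcholine, and Th, which encodes the rate-limiting enzyme of dopamine synthesis. They were 8 of 34396 genes listed. Calb2 was picked for its values in the knockdown libraries, so its levels there are described without a test.

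In the retina, amacrine cells are the interneurons of the inner layers. Most release GABA or glycine, and smaller classes add acetylcholine (starburst amacrine cells) or dopamine. Calretinin marks amacrine and ganglion cells in the mouse, calbindin marks horizontal cells and some amacrine cells, and GlyT1 is carried by glycinergic amacrine cells and also by glia in the nervous system.

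All libraries came from retinas of ICR mice, an outbred stock, that received plasmids by electroporation at postnatal day 0.5 and were then kept as explants for 3 days. Every group carried an EGFP plasmid, and the RNA came from sorted EGFP-positive cells, so it describes the cells that took up plasmid and not the whole retina. One table held scramble shRNA controls, Nmnat1 knockdown and Nmnat2 knockdown, and the other held empty vector controls, Nmnat1 overexpression and Nmnat2 overexpression, with 3 libraries in each of the 6 groups. Nmnat1 and Nmnat2 encode enzymes that make NAD. The labels do not tell whether the 3 libraries of a group are from different animals or explants. The p-values therefore rest on the spread among the libraries alone, and that spread may be technical.

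Levels are given in parts per 1000000 (ppm) of the sum of a library's column. The deposited values are named TPM, a unit scaled to transcript length, so levels of different genes can be set side by side. Fold changes are log2 differences of (ppm + 1) with their standard error (SE), fitted with limma over all genes kept. A gene was called when its Benjamini-Hochberg adjusted p was under 0.05. The tables were normalized separately, so no test sets a level in one against a level in the other. Depth relative to the median library, read from the steps of low values, ran from 0.774 to 1.31 among knockdown libraries and from 0.794 to 1.12 among overexpression libraries. Nmnat1 was at 19.0 ± 1.99 ppm (SD, n = 3) in scramble and at 7.80 ± 0.642 ppm under its knockdown, which did not pass the test (limma adjusted p = 0.130), and Nmnat2, at 2.96 ± 2.91 ppm in scramble and 0.927 ± 0.390 ppm under its knockdown, overlapped between those groups, so the data do not check that knockdown. Overexpressed Nmnat1 and Nmnat2 reached 19325 and 21581 ppm. Library N2_2 of Nmnat2 knockdown and the 3 overexpression-table libraries numbered 1 stood apart on the first principal component of their tables. N2_2 lay at -128.7 and the other 8 knockdown-table libraries between 5.83 and 31.2, and v1, N1_1 and N2_1 lay at 24.5, 33.9 and 91.4 where the other 6 overexpression-table libraries lay between -49.99 and -4.14. N2_2 had 6.51% of its total in mitochondrially encoded genes, where the other libraries of both tables had 2.29 to 4.67%. The fold changes of the 8 genes that N2_2 or the libraries numbered 1 moved, and the calls of other genes, are also given without them. Those fits call far more of all genes, as given beside the counts. Leaving out the libraries numbered 1 also takes away the highest Calb2 value of the control and the lowest of each overexpression arm.

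Calb2 lies on chromosome 8 (GRCm38, 110137502 to 110168210, minus strand, identifier ENSMUSG00000003657.9). Its level was 96.9, 93.7 and 83.5 ppm in the scramble libraries, 14.97, 16.2 and 14.3 ppm under Nmnat1 knockdown, and 338, 161 and 341 ppm under Nmnat2 knockdown. The 3 groups did not overlap, and the order was Nmnat2 knockdown, scramble, Nmnat1 knockdown. The mean under Nmnat1 knockdown (15.2 ± 0.977 ppm, SD, n = 3) was 6.02-fold lower than in scramble (91.4 ± 6.95 ppm), a log2 difference of -2.51 ± 0.27 (SE). Under Nmnat2 knockdown the mean (280 ± 103 ppm) was 3.06-fold higher, a log2 difference of 1.53 ± 0.27. The low value of 161 ppm belongs to library N2_2, and without it the difference was 1.88 ± 0.11. Its level was ranked among the genes of its table with 1 ppm or more in 3 or more of the 9 libraries. Calb2 stood at the 90.1 percentile in scramble, at 62.8 under Nmnat1 knockdown and at 97.4 under Nmnat2 knockdown. In bulk samples, fewer cells of a type and less RNA per cell cannot be told apart.

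The overexpression libraries were not used to pick Calb2, although earlier results of them were known. Calb2 was at 47.3, 34.8 and 36.8 ppm with the empty vector, at 89.3, 132 and 127 ppm with Nmnat1, and at 66.3, 124 and 115 ppm with Nmnat2. Both overexpression arms lay wholly above the empty vector and overlapped each other. With Nmnat2 overexpression Calb2 rose 2.57-fold, from 39.6 ± 6.73 to 102 ± 31.2 ppm (log2 1.30 ± 0.24, limma adjusted p = 0.0488). With Nmnat1 the mean was 116 ± 23.3 ppm, a 2.93-fold difference that did not pass the test (log2 1.52 ± 0.24, limma adjusted p = 0.0525). The arms themselves differed by 0.22 ± 0.24, with a limma adjusted p of 0.953. The call with Nmnat2 lay at the edge of the threshold: it was lost under 13 of 18 alternative settings, with adjusted p from 4.64e-05 to 0.255. Removing v1, v2, v3, N1_2, N1_3, N2_2 or N2_3 alone ended it (adjusted p 0.0821 to 0.255), whereas without the libraries numbered 1 the differences were 1.83 ± 0.08 with Nmnat1 (limma adjusted p = 3.36e-05) and 1.71 ± 0.08 with Nmnat2 (limma adjusted p = 4.64e-05).

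**Figure D1:**
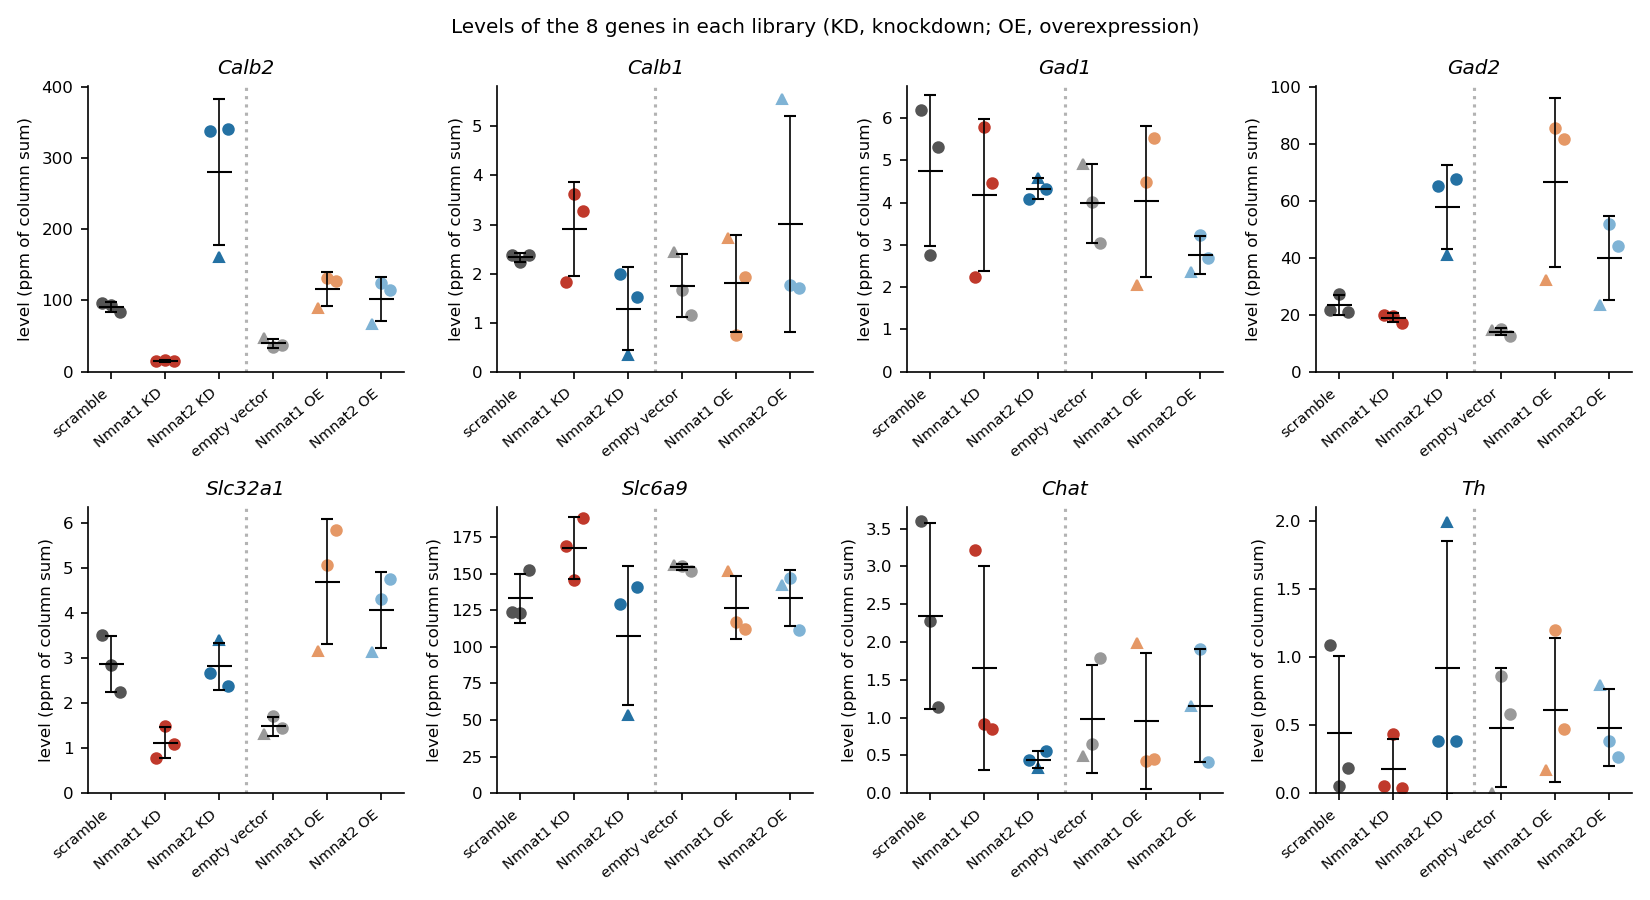
Level of each of the 8 genes (ppm of the column sum, linear axes from 0) in each library, by group. Points are libraries, horizontal marks and bars are the mean and SD of 3, triangles are library N2_2 and the libraries numbered 1, and the dotted line parts the 2 tables. Calb2 under Nmnat1 knockdown sits between 14.3 and 16.2 ppm, below every other library of its table.

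Calb1 did not follow Calb2. It ran from 0.335 to 3.63 ppm in the knockdown table and from 0.745 to 5.56 ppm in the overexpression table. The scramble libraries were within 2.23 to 2.38 ppm, and the Nmnat2 knockdown libraries at 1.99, 0.335 and 1.53 ppm lay below them (log2 -0.62 ± 0.40, limma adjusted p = 0.470). The lowest of these is N2_2, and without it the difference was -0.28 ± 0.39 (limma adjusted p = 0.668). The highest value of 5.56 ppm was in N2_1 of Nmnat2 overexpression, while the other libraries of that group were at 1.76 and 1.70 ppm. Calb1 passed the threshold in none of the 6 comparisons under the settings run. The ratio of Calb2 to Calb1 had a median of 40.6 in scramble, 4.48 under Nmnat1 knockdown and 223 under Nmnat2 knockdown.

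GABA is made by 2 glutamate decarboxylases, GAD67 from Gad1 and GAD65 from Gad2, the latter tied to synaptic vesicles. Both genes and Slc32a1 lie on chromosome 2, on the plus strand, at distant sites: Gad2 at 22622205 to 22693874, Gad1 at 70553072 to 70602014 and Slc32a1 at 158610767 to 158615748 (GRCm38). Gad2 and Slc32a1 were high in the same overexpression libraries and Gad1 was not, so the bases just before the RefSeq start of the 3 genes (GRCm38.p6) are shown up to the first annotated exon. They run 5′ to 3′, and capitals mark CANNTG, the E-box read by basic helix-loop-helix factors, which is its own reverse complement in this form.
Gad2 (chr2:22622077-22622204, plus strand): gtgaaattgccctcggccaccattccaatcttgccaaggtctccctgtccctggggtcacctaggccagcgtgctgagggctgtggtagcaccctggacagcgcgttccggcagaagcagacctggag
Gad1 (chr2:70561879-70562041, plus strand): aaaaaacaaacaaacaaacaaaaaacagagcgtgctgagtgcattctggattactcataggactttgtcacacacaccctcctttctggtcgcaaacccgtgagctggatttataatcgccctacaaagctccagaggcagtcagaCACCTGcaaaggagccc
Slc32a1 (chr2:158610508-158610757, plus strand): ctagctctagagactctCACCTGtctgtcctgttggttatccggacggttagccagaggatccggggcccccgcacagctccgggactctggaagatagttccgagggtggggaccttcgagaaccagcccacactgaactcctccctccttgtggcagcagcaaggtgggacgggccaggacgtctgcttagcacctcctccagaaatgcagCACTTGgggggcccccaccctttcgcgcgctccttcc
The printed Gad1 stretch, 163 bases long and inside an intron of the longer GENCODE model of the gene, held 1 match and the 250 bases of Slc32a1 held 2. None was in the 128 printed bases of Gad2, and 1 was in its full window of 250 bases. Of 32851 RefSeq windows of 250 bases, 66.2% held the motif, with a median of 1 match, so these counts are common ones. A match is a description of the letters and not of binding. RefSeq windows were found for 6 of the 8 genes.

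Gad2 was at 21.7, 27.4 and 20.95 ppm in scramble, 19.9, 19.7 and 17.2 ppm under Nmnat1 knockdown, and 65.1, 41.0 and 67.7 ppm under Nmnat2 knockdown. The Nmnat2 knockdown libraries lay wholly above scramble, with N2_2 lowest again, and those of Nmnat1 knockdown lay just below it. Against scramble, the mean under Nmnat2 knockdown (58.0 ± 14.7 against 23.4 ± 3.54 ppm, SD, n = 3) was 2.48-fold higher without passing the test (log2 1.25 ± 0.25, limma adjusted p = 0.0621). Without N2_2 the difference was 1.48 ± 0.17 and passed (limma adjusted p = 0.000401), and it passed with median-of-ratios scaling at 1.49 (limma adjusted p = 0.0261), a scaling that moved the median of all genes from -0.23 to -0.04. Under Nmnat1 knockdown it was -0.28 ± 0.25 (limma adjusted p = 0.727), while Calb2 in the same libraries was -2.51. Set against each other, Nmnat1 knockdown was 3.06-fold below Nmnat2 knockdown (log2 -1.53 ± 0.25, limma adjusted p = 0.0128). This call held under 9 of 16 alternatives, with adjusted p from 9.93e-05 to 0.370, and ended without N1_1, N1_2, N1_3, N2_1 or N2_3 (adjusted p 0.0589 to 0.0854).

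With the empty vector Gad2 was at 14.5, 15.02 and 12.7 ppm. Nmnat1 overexpression gave 32.2, 85.5 and 81.6 ppm, and Nmnat2 overexpression 23.4, 52.0 and 44.2 ppm. Both arms lay wholly above the empty vector, and in each the library numbered 1 was the lowest. The means were 4.72-fold and 2.83-fold above the control, and neither passed the test (log2 2.04 ± 0.37, limma adjusted p = 0.0720, and 1.37 ± 0.37, limma adjusted p = 0.165). Without the libraries numbered 1, both passed, at 2.51 ± 0.12 (limma adjusted p = 5.10e-05) and 1.73 ± 0.12 (limma adjusted p = 0.000291). Leaving out N1_1 or N2_1 alone gave adjusted p of 0.00744 and 0.0253 with Nmnat1, and 0.0389 and 0.0485 with Nmnat2. Of 18 alternatives, 14 gave no call in either arm, with adjusted p up to 0.390 with Nmnat1 and 0.456 with Nmnat2. The arms overlapped and differed by 0.67 ± 0.37 (limma adjusted p = 0.953).

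**Figure D2:**
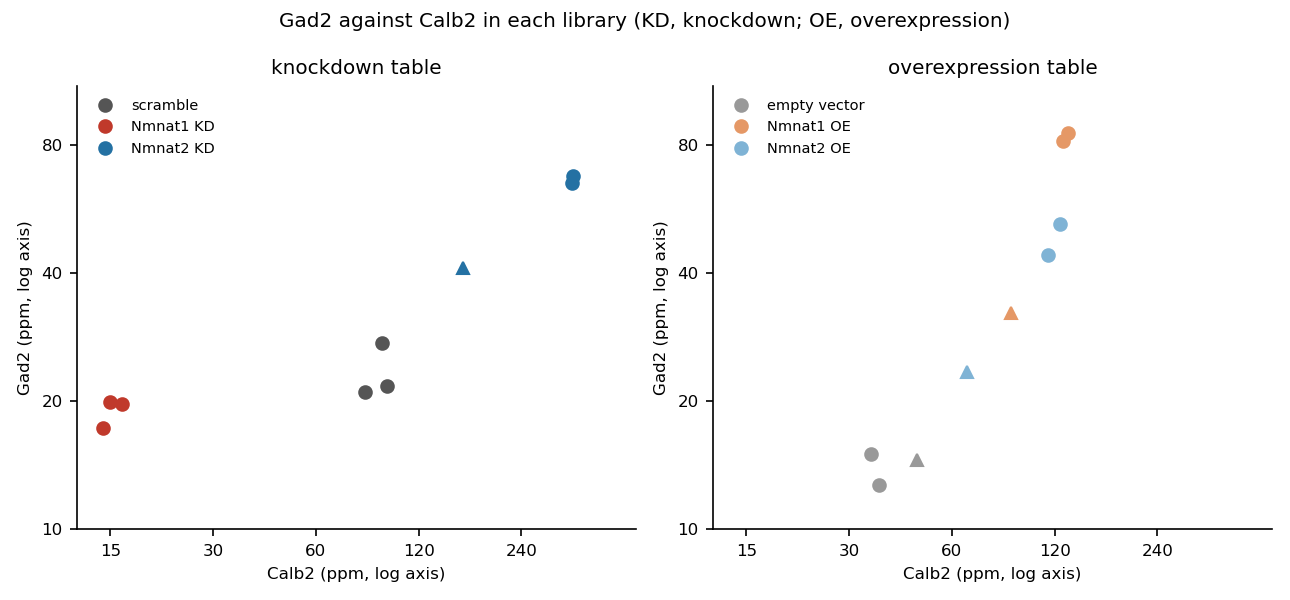
Level of Gad2 against level of Calb2 in each library (ppm, both axes log), knockdown table on the left and overexpression table on the right. Triangles are N2_2 and the libraries numbered 1. Nmnat1 knockdown libraries sit at 14.3 to 16.2 ppm of Calb2 with 17.2 to 19.9 ppm of Gad2, close to the Gad2 of scramble (20.95 to 27.4 ppm).

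Gad1 stayed between 2.06 and 6.19 ppm in all 18 libraries. In scramble it was at 6.19, 2.75 and 5.31 ppm, under Nmnat1 knockdown at 2.24, 5.80 and 4.48 ppm, and under Nmnat2 knockdown at 4.08, 4.59 and 4.32 ppm. The groups overlapped in both tables, and limma adjusted p was 0.783 or more in each of the 6 comparisons. Gad2 exceeded Gad1 in every library. Their ratio was 3.51 to 9.96 in scramble and 3.40 to 8.89 under Nmnat1 knockdown, and 8.93 to 15.97 under Nmnat2 knockdown, a range that overlapped scramble. In the overexpression table it was 2.96 to 4.17 with the empty vector, 14.7 to 19.0 with Nmnat1 and 9.92 to 16.5 with Nmnat2, with both arms above the control.

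Slc32a1 loads GABA and glycine into synaptic vesicles, and its levels were low. In scramble it was at 3.51, 2.84 and 2.25 ppm, under Nmnat1 knockdown at 0.782, 1.49 and 1.10 ppm, and under Nmnat2 knockdown at 2.68, 3.40 and 2.39 ppm. The Nmnat1 knockdown libraries lay below all others of the table and the other groups overlapped. The mean was 2.55-fold lower than in scramble, but the difference did not pass the test (log2 -0.87 ± 0.34, limma adjusted p = 0.411). Under Nmnat2 knockdown it was -0.01 ± 0.34 (limma adjusted p = 0.993), in the libraries where Calb2 and Gad2 were high. As the gene has a single transcript of 2797 bases, its values stood for about 24.6 to 183 reads in each knockdown-table library and 51.7 to 223 in each overexpression-table library. A stretch of 697 of its exon bases is shared with Gm14205 on the other strand, and the libraries do not mark strand, so reads of the pair cannot be told apart.

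In the overexpression table Slc32a1 was at 1.30, 1.71 and 1.45 ppm with the empty vector. It was at 3.16, 5.07 and 5.86 ppm with Nmnat1 and at 3.13, 4.32 and 4.77 ppm with Nmnat2, so both arms lay wholly above the control. The means were 3.16-fold and 2.74-fold higher, and neither passed the test (log2 1.17 ± 0.30, limma adjusted p = 0.177, and 1.02 ± 0.30, limma adjusted p = 0.216). Without the libraries numbered 1 both passed, at 1.33 ± 0.25 (limma adjusted p = 0.0155) and 1.10 ± 0.25 (limma adjusted p = 0.0365). The other 17 of 18 alternatives gave no call in either arm, with adjusted p up to 0.649 and 0.500. As for Calb2 and Gad2, the lowest library of each arm was the one numbered 1.

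Slc6a9 was at 111 ppm or more in every library but N2_2 of Nmnat2 knockdown. It was at 124, 123 and 153 ppm in scramble, 169, 146 and 188 ppm under Nmnat1 knockdown and 129, 53.2 and 141 ppm under Nmnat2 knockdown, where the low value is that of N2_2. The groups overlapped scramble, and the differences were 0.33 ± 0.32 (limma adjusted p = 0.756) and -0.42 ± 0.32 (limma adjusted p = 0.553). Without N2_2 the latter was 0.03 ± 0.13 (limma adjusted p = 0.916). With the empty vector it was at 156, 155 and 152 ppm, with Nmnat1 at 152, 117 and 112 ppm and with Nmnat2 at 142, 147 and 111 ppm. Both arms lay just below the empty vector, by 0.29 ± 0.14 and 0.22 ± 0.14 on the log2 scale, and neither passed the test (limma adjusted p = 0.554 and 0.679). The highest value with Nmnat1, 151.83 ppm in N1_1, was nearly that of v3, 151.93 ppm. Slc6a9 made up 47.7 to 56.9% of the summed level of the 8 genes in scramble, 75.1 to 82.0% under Nmnat1 knockdown and 19.97 to 25.2% under Nmnat2 knockdown. The share of Calb2 was 31.1 to 37.4%, 6.25 to 8.38% and 60.6 to 62.4%. Both are parts of the same sum, so a change in Calb2, which was picked on these libraries, moves the share of Slc6a9. Nothing is read from these shares about Slc6a9. Of 5141 exon bases of Slc6a9, 1429 are shared with Ccdc24, 511 with Gm17114 and 46 with B4galt2, all on the other strand.

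Chat and Th were the lowest of the 8 genes by their mean over each table. Chat was at 3.603, 2.28 and 1.15 ppm in scramble, 3.21, 0.917 and 0.844 ppm under Nmnat1 knockdown and 0.441, 0.329 and 0.563 ppm under Nmnat2 knockdown. The last group lay below both others, at a log2 difference from scramble of -1.15 ± 0.44 that did not pass the test (limma adjusted p = 0.230). In this table Chat reached 1 ppm, the level asked for testing, only in the scramble libraries and N1_1. Its test is therefore no support for a difference. If all reads came from its longest transcript, these values would stand for 46.8 to 193 reads in scramble, 33.8 to 104 under Nmnat1 knockdown and 11.2 to 25.5 under Nmnat2 knockdown. In the overexpression table Chat ran from 0.409 to 1.99 ppm with all groups overlapping. Slc18a3, the vesicular acetylcholine transporter that lies inside the Chat locus, was at most 0.526 and 0.837 ppm in the tables. Th ran from 0.0411 to 1.99 ppm in the knockdown table, with the highest value in N2_2, and from 0 to 1.195 ppm in the overexpression table. It did not reach 1 ppm in 3 libraries of either table and was not tested. On the same terms its values stood for 0 to 44.5 reads per library.

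**Figure D3:**
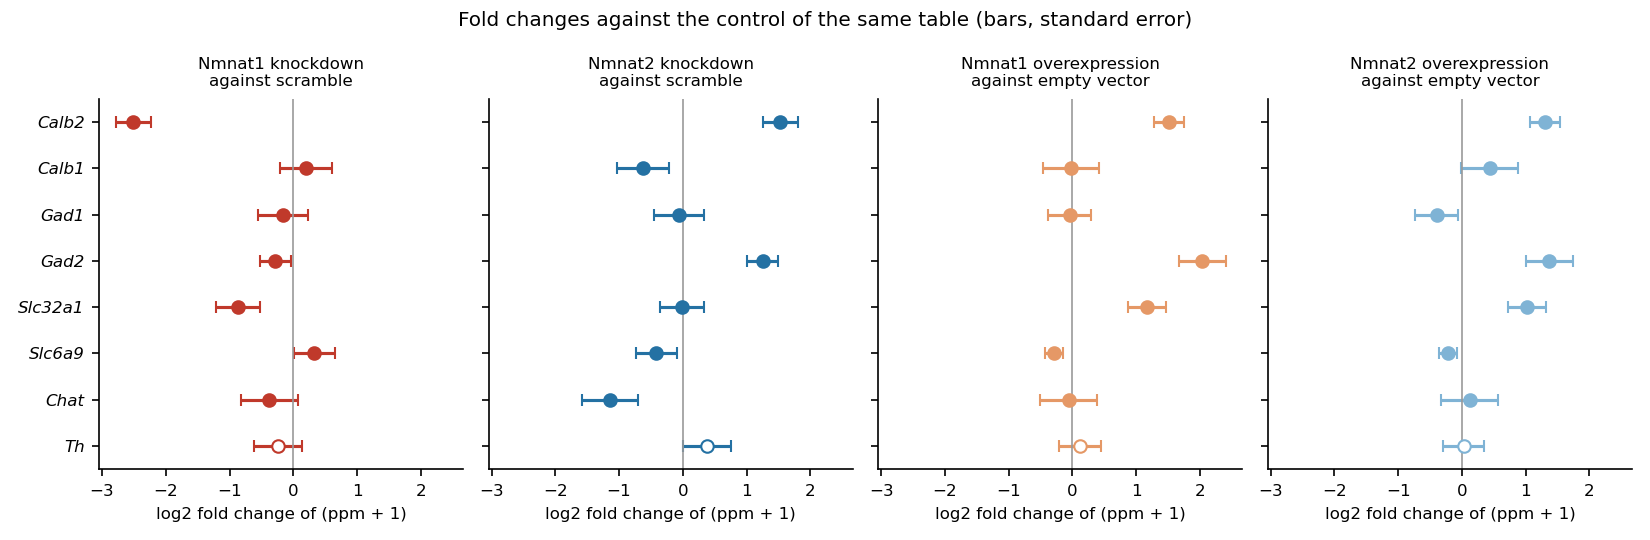
Log2 fold change of each gene against the control of its table (points) with its SE (bars), in 4 comparisons. Open points mark Th, which did not pass the filter, and Calb2 in the knockdown panels is shown without a test. Calb2 is at -2.51 and 1.53 in the knockdown panels and at 1.52 and 1.30 in the overexpression panels.

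Counted over the genes, 7 of 8 passed the filter in each table. Of the 6 that were tested in the knockdown table, none was called against scramble under Nmnat1 knockdown, where 0.144% of the 22233 genes kept were called in either direction, and none under Nmnat2 knockdown, where 0.436% were. In the same limma fits 2338 and 3742 of all genes had an unadjusted p under 0.05, among them Slc32a1 under Nmnat1 knockdown and Gad2 and Chat under Nmnat2 knockdown. Chat passed the filter mainly through the scramble libraries, so its p is no support for a difference. Between the knockdown arms 1 of the 6 was called, Gad2, against 2.06% of all genes. With overexpression, 7 of the genes were tested. None was called with Nmnat1, against 0.121% of 20725 genes, and 1 with Nmnat2, Calb2, against 0.55%. Between those arms none was called, against 0.0193%. For these 3 comparisons 1983, 2132 and 924 of all genes had an unadjusted limma p under 0.05, among them Calb2, Gad2 and Slc32a1 in both arms against the empty vector and none of the 8 between the arms. Both overexpression arms share the empty vector libraries and both knockdown arms share scramble, so that the arms of a table are not independent. Without N2_2, limma called 8.43% of all genes under Nmnat1 knockdown, 15.5% under Nmnat2 knockdown and 13.5% between the arms, and without the libraries numbered 1 it called 11.1% with Nmnat1, 8.18% with Nmnat2 and 0.291% between the arms. The calls of Calb2, Gad2 and Slc32a1 in those fits stand against these shares.

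Groups that did not overlap were more frequent. Under Nmnat1 knockdown 3 genes, Calb2, Gad2 and Slc32a1, lay wholly below scramble (12% of all genes did) and none lay wholly above (12.8%). Under Nmnat2 knockdown Calb2 and Gad2 lay wholly above scramble (4.73% of all genes) and Calb1 and Chat wholly below (17.2%). In each overexpression arm Calb2, Gad2 and Slc32a1 lay wholly above the empty vector (7.74% of all genes with Nmnat1, 8.6% with Nmnat2), and Slc6a9 lay wholly below (10.1% and 7.73%). For Slc6a9 with Nmnat1 the nearest values were 151.83 ppm in N1_1 and 151.93 ppm in v3, close to a tie. Between the knockdown arms Calb2, Gad2 and Slc32a1 were wholly lower under Nmnat1 knockdown (6.37% of all genes) and Slc6a9 and Chat wholly higher (19%). Between the overexpression arms all 7 overlapped, where 8.34% of all genes did not. The knockdown counts include Calb2, which was picked on those libraries, and nothing is read from it there. Chat passed the filter in the knockdown table mainly through the scramble libraries, so its place below them is no support for a difference.

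**Figure D4:**
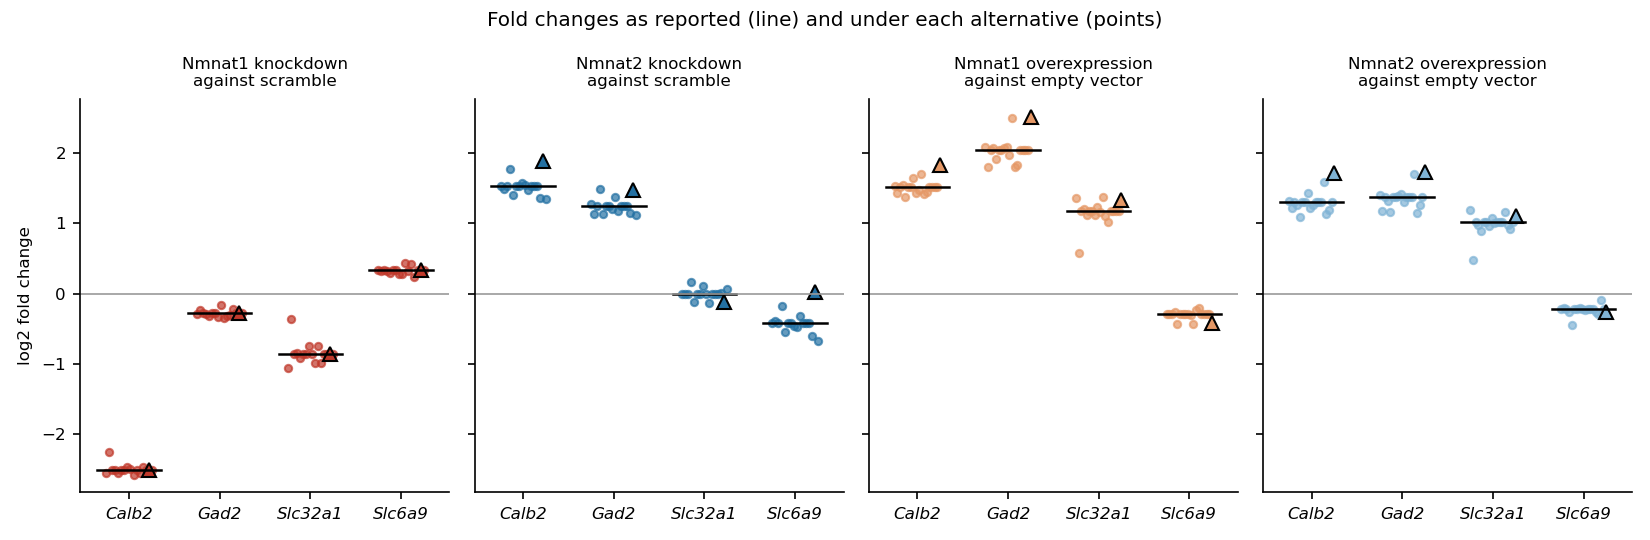
Log2 fold change of Calb2, Gad2, Slc32a1 and Slc6a9 as reported (horizontal lines) and under each alternative setting (points), in 4 comparisons. Triangles are the fits without N2_2 (knockdown panels) or without the libraries numbered 1 (overexpression panels). All points of Calb2 and Gad2 keep the sign of the line, and those of Slc32a1 under Nmnat2 knockdown, from -0.13 to 0.17, lie on both sides of 0. The groups of Calb2 and Gad2 did not overlap the control, so leaving out libraries could not change their sign.

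Lists of the transmitter pathways, chosen with earlier results of these data known, gave few calls with all libraries included. Gad1, Gad2 and Slc32a1 are in the GABA list and Slc32a1 and Slc6a9 in the glycine list. Chat is in the cholinergic list and Th in the dopaminergic list. Those that passed the filter are part of the counts and medians with all libraries. Of 12 genes of GABA synthesis, transport and breakdown, all 12 passed the filter and none was called against a control in the 4 comparisons. The median log2 difference was -0.22 under Nmnat1 knockdown, 0.04 under Nmnat2 knockdown, 0.21 with Nmnat1 and 0.13 with Nmnat2, where the median of all genes was -0.0034, -0.23, -0.04 and 0.06. Of the lists of glycine transport and breakdown (9 of 10 genes tested), cholinergic genes (13 and 12 of 20) and dopaminergic genes (11 of 16), none was called against a control. This count depended on the libraries that stand apart. Of the 9 GABA list genes other than the 8, limma called 1 higher and 3 lower under Nmnat1 knockdown without N2_2 (4.82% and 3.6% of all genes). Under Nmnat2 knockdown it called 4 higher (7.99% of all genes). Without the libraries numbered 1 it called 6 higher with Nmnat1 (6.21% of all genes) and 2 higher with Nmnat2 (4.65%). Slc6a5, the neuronal glycine transporter GlyT2, was at most 3.45 and 3.18 ppm in the tables. Among receptors for GABA and glycine and their scaffold, 20 and 19 of 25 were tested. Gabra2, a subunit of the GABA-A receptor, rose with Nmnat2 from 9.04 to 27.0 ppm (log2 1.48 ± 0.26, limma adjusted p = 0.0464), and Gabbr2, a subunit of the GABA-B receptor, was higher under Nmnat1 than under Nmnat2 knockdown (28.9 and 8.08 ppm, log2 1.73 ± 0.33, limma adjusted p = 0.0259). Of all genes, 0.55% were called with Nmnat2 overexpression and 2.06% between the knockdown arms. Without N2_2, 1 of 20 receptor list genes was called higher and 4 lower under Nmnat1 knockdown (4.82% and 3.6% of all genes). In that fit 2 were lower under Nmnat2 knockdown (7.51%), and 2 were higher and 2 lower between the arms (6.52% and 7.02%). Without the libraries numbered 1, 3 of 18 were higher with Nmnat1 (6.21%) and 3 with Nmnat2 (4.65%).

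Among 24 calcium-binding buffers and sensors, 21 were tested in the knockdown table, where Calb2 was left out, and 22 in the overexpression table. Cabp1, a neuronal calcium sensor, fell under Nmnat2 knockdown from 113 to 52.6 ppm (log2 -1.09 ± 0.16, limma adjusted p = 0.0288) and rose with Nmnat2 overexpression from 61.7 to 107 ppm (0.79 ± 0.15, limma adjusted p = 0.0498). Hpca, which encodes the neuronal calcium sensor hippocalcin, rose with Nmnat1 from 9.46 to 22.1 ppm (1.14 ± 0.16, limma adjusted p = 0.0340) and with Nmnat2 to 24.7 ppm (1.30 ± 0.16, limma adjusted p = 0.0171). Rcvrn, the photoreceptor protein recoverin, fell with Nmnat2 from 156 to 60.2 ppm (-1.37 ± 0.21, limma adjusted p = 0.0258). Hpcal1, a relative of hippocalcin, was higher under Nmnat1 than under Nmnat2 knockdown (36.7 and 15.99 ppm, limma adjusted p = 0.0305). Of all genes, 0.436% were called under Nmnat2 knockdown, 2.06% between the knockdown arms, 0.121% with Nmnat1 overexpression and 0.55% with Nmnat2. No other gene of the list but Calb2 was called with all libraries included. Of the list genes other than the 8, 5 of 20 were called lower under Nmnat1 knockdown without N2_2 (3.6% of all genes). In that fit 1 was higher and 5 lower under Nmnat2 knockdown (7.99% and 7.51%). Between the arms 5 were higher and 3 lower (6.52% and 7.02%). Without the libraries numbered 1, 7 of 17 were higher and 1 lower with Nmnat1 (6.21% and 4.94%), and 7 higher and 2 lower with Nmnat2 (4.65% and 3.53%).

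Transcription factors that direct cells to amacrine and horizontal fates were measured in the same libraries. Of 30, 28 were tested in the knockdown table and 27 in the overexpression table. Under Nmnat1 knockdown none was called, 24 of 28 were below 0 and the median was -0.72, and under Nmnat2 knockdown none was called, with a median of 0.18. Between the knockdown arms 5 were lower under Nmnat1 knockdown: Tfap2b (6.68 and 57.8 ppm, log2 -2.85 ± 0.35, limma adjusted p = 0.00429), Ptf1a (1.19 and 45.9 ppm, -4.24 ± 0.58, limma adjusted p = 0.00621), Pax6 (47.8 and 221 ppm), Nhlh2 (19.3 and 124 ppm) and Prdm13 (24.1 and 155 ppm), with limma adjusted p of 0.0185 or less. In that comparison 2.06% of all genes were called in either direction. Ptf1a is the basic helix-loop-helix factor needed for amacrine and horizontal cells. With Nmnat1 overexpression 1 of 27 was called, Nhlh2, a basic helix-loop-helix factor, which rose from 30.2 to 104 ppm (1.75 ± 0.20, limma adjusted p = 0.0141), and the median was 0.72. With Nmnat2, 4 of 27 were called, Nhlh2 (97.4 ppm), Prox1 (27.8 to 54.1 ppm), Prdm13 (53.1 to 146 ppm) and Ebf3 (5.60 to 15.4 ppm, from the empty vector mean to the Nmnat2 mean), with limma adjusted p of 0.0164 to 0.0498, and the median was 0.74. Of all genes, 0.121% were called with Nmnat1 overexpression and 0.55% with Nmnat2 in these fits. Without N2_2, limma called 1 of 28 higher and 11 lower under Nmnat1 knockdown (4.82% and 3.6% of all genes). Under Nmnat2 knockdown it called 13 higher and 1 lower (7.99% and 7.51%), and between the knockdown arms 17 lower (7.02%). Without the libraries numbered 1 it called 16 of 27 higher with Nmnat1 (6.21% of all genes) and 14 with Nmnat2 (4.65%). These alternatives for list genes were chosen after seeing the data, and each gene of the receptor, calcium and fate lists that is named here with a call was also called in them, in the same direction.

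Summed levels of marker lists, with the 8 genes left out, differed between the same libraries. Sums weigh abundant genes most. The summed level of 23 amacrine markers was 241 to 257 ppm in scramble, 111 to 118 ppm under Nmnat1 knockdown, and 439, 181 and 425 ppm under Nmnat2 knockdown, where the lowest was N2_2. With the empty vector it was 161 to 182 ppm, with Nmnat1 240 to 391.7 ppm and with Nmnat2 219 to 377 ppm. Gene by gene, with those of the 8 genes that the list holds included, the median log2 difference of the tested amacrine markers was -0.47 under Nmnat1 knockdown (17 of 21 below 0), 0.04 under Nmnat2 knockdown (11 of 21 above 0), 0.12 with Nmnat1 (12 of 20 above 0) and 0.38 with Nmnat2 (13 of 20 above 0). Progenitor markers (18 genes) summed to 691 to 703 ppm in scramble, 385 to 425 under Nmnat1 knockdown and 953, 434 and 966 under Nmnat2 knockdown, with N2_2 again lowest. They summed to 679 to 860 ppm with the empty vector, 740 to 1182 with Nmnat1 and 594 to 1160 with Nmnat2. Horizontal markers, 10 and 9 genes in the tables, summed to 348 to 358 ppm in scramble, 315 to 328 under Nmnat1 knockdown and 195 to 392.5 under Nmnat2 knockdown. They summed to 88.3 to 107 ppm with the empty vector, 152 to 230 with Nmnat1 and 117 to 234 with Nmnat2. The most abundant of them was Sept4 in the knockdown table (96.0 to 247 ppm) and Tpm3 in the overexpression table (37.7 to 112 ppm). The sums of the 2 tables are not set side by side. Gene by gene, Calb1 included, 6 of 10 were below 0 under Nmnat1 knockdown and 7 of 10 under Nmnat2 knockdown. With overexpression, 7 of 9 were above 0 with Nmnat1 and 9 of 9 with Nmnat2. Rod markers (18 genes) summed to 8844 to 9009 ppm in scramble, 9379 to 9462 under Nmnat1 knockdown and 3812 to 6692 under Nmnat2 knockdown. They summed to 9126 to 9659 ppm with the empty vector, 4921 to 8098 with Nmnat1 and 4805 to 6260 with Nmnat2. Gene by gene, 10 of 17 tested rod markers were below 0 under Nmnat1 knockdown (median -0.06), where the sums lay above scramble. Under Nmnat2 knockdown 17 of 17 were below 0. With overexpression, 16 of 17 were below 0 with Nmnat1 and 17 of 17 with Nmnat2. Rod markers summed to more than amacrine markers in every library. Sag and Nhlh2 were the most abundant genes of the rod and amacrine lists in both tables.

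Ganglion cells can also carry calretinin. Their 21 markers summed to 95.7 to 151 ppm in scramble, 66.8 to 85.7 under Nmnat1 knockdown and 106 to 194 under Nmnat2 knockdown, and to 73.8 to 81.1 with the empty vector, 113 to 160 with Nmnat1 and 97.2 to 150 with Nmnat2. Of the defining factors, Pou4f2 was at most 0.548 ppm and Pou4f3 at most 0.582 ppm in any library. Pou4f1 was at 0.764 ppm in scramble, 1.74 under Nmnat1 knockdown and 1.96 under Nmnat2 knockdown on average, with a highest value of 4.15 ppm, and Rbpms reached 8.74 ppm. Stmn2 was the most abundant of the list. Müller glia markers (16 genes) summed to 4985 to 5658 ppm in scramble, 2631 to 2774 under Nmnat1 knockdown and 2178 to 3544 under Nmnat2 knockdown. In the overexpression table they were at 5283 to 6137 ppm with the empty vector, 5205 to 6163 with Nmnat1 and 3783 to 6868 with Nmnat2. Among amacrine markers, those at 0 in all libraries of a group were Cck in scramble and with Nmnat1 overexpression, Slc18a3 under Nmnat1 knockdown and Crh in both Nmnat2 groups. The part of these differences in the levels of the 8 genes was not tested.

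**Figure D5:**
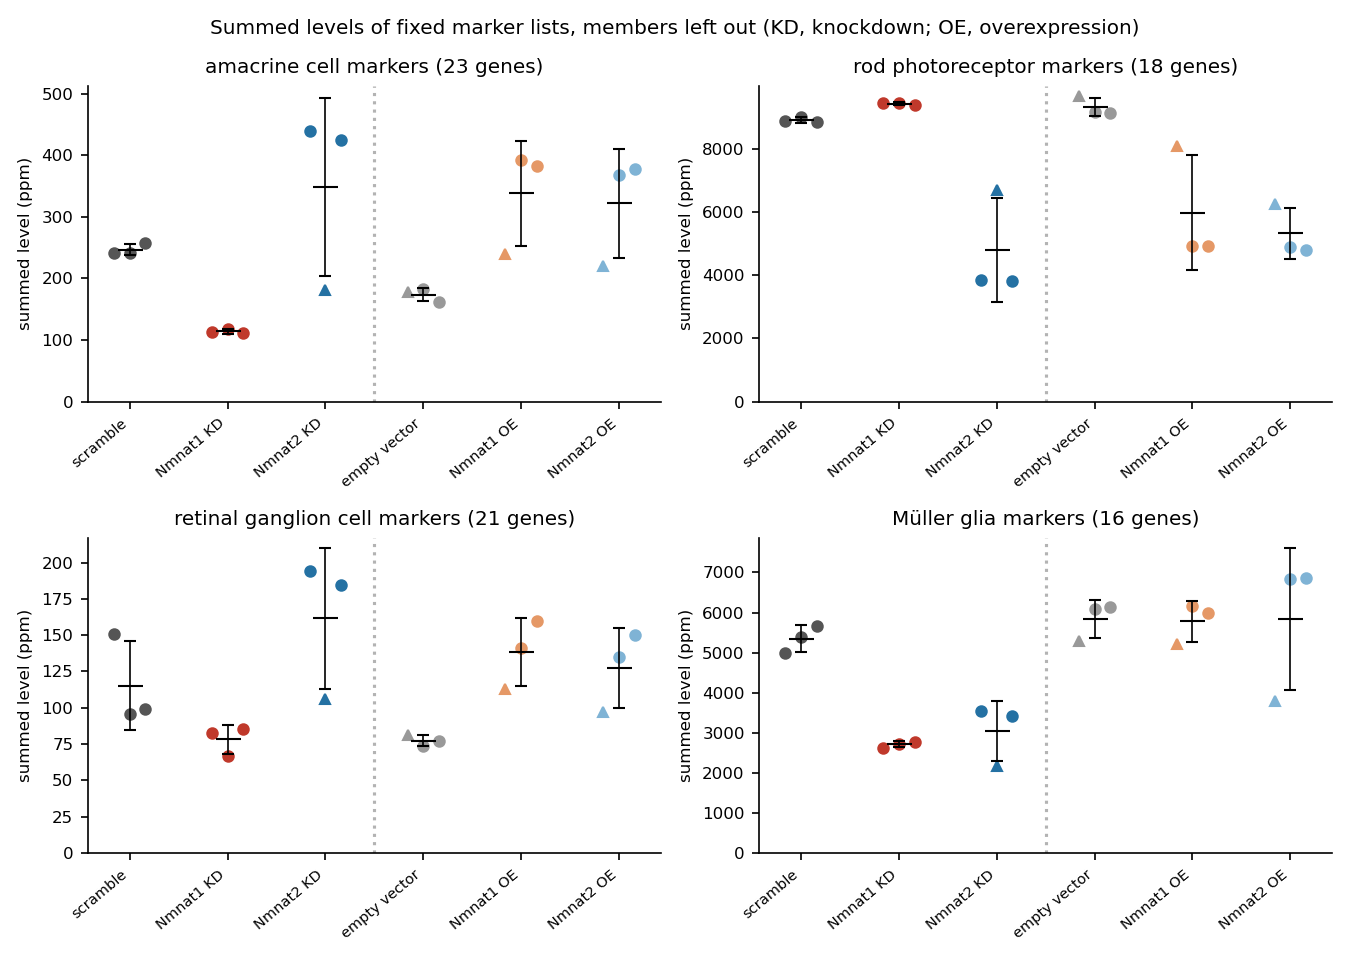
Summed level (ppm, axes from 0) of 4 marker lists in each library, by group, with the 8 genes left out of the lists. Points are libraries, horizontal marks and bars are the mean and SD of 3, and triangles are N2_2 and the libraries numbered 1. In the Nmnat2 knockdown group, N2_2 has 181 ppm of amacrine markers beside 425 and 439 ppm in the other libraries.

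The genes whose levels were most like Calb2 over the 9 knockdown libraries, of 10107 compared, were Cxcl14, Glcci1, Sox11, Stmn2 and Grrp1, with Pearson's r of log2 levels from 0.980 to 0.989. Isoc1, Ldha and Tnfsf9 were the most opposite (r = -0.995 to -0.991). In the overexpression table, of 10115 genes, Nsg2, Tubb2a, Ier5, Prdm13 and Cyfip2 were most like Calb2 (r = 0.986 to 0.994), and Lgmn, Tnk2 and Epb41l5 the most opposite (r = -0.974 to -0.962). No gene was in both lists. For Slc32a1 they were Celf3, B2m, Tm2d1, Ppp1r1a and Ptgds in the knockdown table (r = 0.941 to 0.972) and Mtss1, Ncan, Nsg1, Plxdc2 and Prdm13 in the overexpression table (r = 0.982 to 0.990). Prdm13, a factor of amacrine cell fate, was on both lists of the overexpression table. Calb2 and Slc32a1 were themselves alike over those 9 libraries (r = 0.952), so the lists are not independent. Prdm13 was at 48.0 to 57.4 ppm with the empty vector, 107 to 191 ppm with Nmnat1 and 94.8 to 173 ppm with Nmnat2. These values describe 9 libraries that share groups, library totals and the libraries that stand apart.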

How the data were processed

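The labels give 18 samples in 6 groups of 3. Sorted cells were profiled with SMART-Seq v4 from 1 ng of RNA and the Nextera DNA Flex kit, which does not mark strand, per the labels' protocols. The titles of 1 Nmnat2 knockdown and 1 Nmnat2 overexpression sample name another gene, and the characteristics were followed. Knockdown columns show a group but no single sample.

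The submitters' processing notes list Salmon 0.11.3, sleuth 0.30.0 and the build GRCm38.p6, with no role. The deposited signal is named TPM, yet each column sums to far more than the 1000000 of that unit, and the authors' scaling is not stated. It was divided by the column sum to give ppm. An incomplete last line of each table was left out. The filter asked for 1 ppm or more in 3 or more of the 9 libraries and kept 22233 of 34385 and 20725 of 34396 genes. The fit was made on log2(ppm + 1) in limma 3.58.1 (R 4.3.3), with a mean-variance trend, the 3 groups of a table in 1 fit, two-sided tests and Benjamini-Hochberg adjustment over all genes kept. The tables were normalized apart, and no test crosses them. The script was tested on simulated data.

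Low values of genes with 1 annotated transcript lay near whole reads in 79.3 to 86.7% of cases (tolerance 0.1, 20% by chance), which gave relative depth. At 1 kb of effective length, 1 ppm was worth about 12.6 to 20.6 reads among knockdown libraries and 11.3 to 16.6 among overexpression libraries. Whole reads were sought only in those genes, so no count test was run. Coordinates are from GENCODE M21 on GRCm38, where 99.9% of identifiers were found, and sequences from RefSeq. Figures were drawn with matplotlib 3.10.9.

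The 8 genes and all lists were chosen with earlier results of these data known. Named beside them were the 5 genes most like Calb2 or Slc32a1 and the 3 least like Calb2 (mean of at least 5 ppm, Pearson's r over 9 libraries), up to 4 called genes of a pathway list by smallest p, the plasmid genes, and the most abundant and absent markers of a list. Prdm13, Slc6a5, Slc18a3, Pou4f1, Pou4f2, Pou4f3, Rbpms and the genes that overlap the 8 were named as background after values were seen. Alternatives covered the pseudocount, filter, scaling, groups fitted, trend, single libraries and, in the overexpression table, the replicate number and the libraries numbered 1.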

Additional observations from a re-analysis of the deposited data

How the results depend on the processing

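Each comparison was recomputed under 16 alternatives in the knockdown table and 18 in the overexpression table. Calb2 and Gad2 kept their direction against each control in all of them. Slc32a1 did so in every comparison with a control except Nmnat2 knockdown. In those comparisons the groups did not overlap the control, so leaving out libraries could not change the sign. Calb2 was also picked on the knockdown libraries, so its kept direction is no support for a difference there. The number of the 8 genes called moved. For Nmnat2 knockdown against scramble it was 0, 1 with median-of-ratios scaling, and 0 to 1 as single libraries were left out. Between the knockdown arms it was 1, 0 on deposited values or with only the 2 groups compared, and 0 to 1 as libraries were left out. With Nmnat1 overexpression it was 0, 1 with only the 2 groups compared, 3 without the libraries numbered 1 and 0 to 2 as libraries were left out. With Nmnat2 overexpression it was 1, 0 with a pseudocount of 5, no filter, median-of-ratios scaling, deposited values, only the 2 groups compared or no trend, 3 without the libraries numbered 1 and 0 to 2 as libraries were left out. Without the libraries numbered 1, the share of all genes called was 11.1% with Nmnat1 and 8.18% with Nmnat2. For most other alternatives that share is not given, so the counts are not read as a result about the 8 genes. The cause of these moves was not tested.

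With the replicate number as a block, 2 genes (Calb2 and Gad2) were called with Nmnat1 and 2 with Nmnat2. The share of all genes called in that fit is not given, so these counts are not read as a result about the genes called. The main fit used the group alone and did not pair the samples by number. Libraries of the same number were alike across groups to differing degrees, most for number 1 and least for number 3. Their deviations from the group means correlated at 0.211 to 0.461 for number 1, 0.124 to 0.285 for number 2 and 0.0271 to 0.139 for number 3. Deviations within a group cancel each other, so the values of the 3 numbers are not independent. Of 9 libraries, 7 correlated best with one of their own number. The main fit does not account for this likeness, and its source was not tested. No paired analysis was possible for the knockdown table because its columns carry no number of the labels.

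Small differences changed sign, none of them called. With median-of-ratios scaling, Nmnat2 knockdown gave 0.14 for Gad1 and 0.17 for Slc32a1, as the median of all genes moved from -0.23 to -0.04. Relative to that median, Gad2 was 1.48 and 1.53 higher and Calb2 1.76 and 1.81. Between the overexpression arms Slc6a9 gave 0.0059 with that scaling and 0.0056 on deposited values. With Nmnat1 overexpression, Calb1 gave 0.0028 with a pseudocount of 5 and Gad1 0.42 without the libraries numbered 1. As single libraries were left out, Gad1 ranged from -0.45 to 0.14 under Nmnat1 knockdown, from -0.34 to 0.13 under Nmnat2 knockdown, from -0.34 to 0.20 between the knockdown arms and from -0.26 to 0.28 with Nmnat1 overexpression. Slc32a1 and Slc6a9 ranged from -0.13 to 0.10 and from -0.67 to 0.026 under Nmnat2 knockdown. With Nmnat1 overexpression Calb1 ranged from -0.26 to 0.29 and Chat from -0.40 to 0.23, and with Nmnat2 overexpression Chat ranged from -0.13 to 0.40. Between the overexpression arms the ranges were -0.52 to 0.074 for Chat, -0.21 to 0.0062 for Slc6a9 and -0.065 to 0.39 for Calb2. Chat did not pass the filter without the libraries numbered 1 and has no value there. A library left out alone leaves 2 in its group.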
